A study of Homo sapiens with 12 samples.

Results

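The 2 knockdowns set side by side here act on consecutive steps of one route. SLC25A1 encodes the citrate carrier of the inner mitochondrial membrane, which moves citrate into the cytosol. ACLY encodes ATP citrate lyase, which cleaves that cytosolic citrate to acetyl-CoA and oxaloacetate. Cytosolic acetyl-CoA feeds fatty acid synthesis, the mevalonate route to cholesterol and the acetylation of histones and other proteins. In the liver and in many tumours sterol shortage activates SREBP transcription factors, which raise the enzymes of sterol and fatty acid synthesis.

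The comparison used 6 of the 12 libraries of the series, 3 from siSLC25A1 cells and 3 from siACLY cells, chosen by the genotype and title in the sample labels. All groups were MiaPaCa-2, an established human pancreatic cancer line, treated with siRNAs, which lower a chosen transcript by base pairing with it. The other groups were siControl and siACO1, with 3 libraries each, and the control cells had been transfected too. The series title places the work in ferroptosis, an iron-dependent death by lipid peroxidation, under nutrient stress, but the labels give no nutrient condition, no time after transfection, no siRNA sequence and no number of siRNAs per target. A difference between the groups can therefore not be told apart from an effect of the particular siRNAs. The labels also do not say whether replicates were separate cultures, so p-values measure the spread between these libraries.

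Levels are CPM, the counts of a gene relative to the library total, scaled by the trimmed mean of M values (TMM), a per-library factor that balances most genes. Each difference is a log2 fold change of siSLC25A1 minus siACLY, so that a negative value means a higher level in siACLY. A gene was called at a Benjamini-Hochberg adjusted p under 0.05 in edgeR's two-sided quasi-likelihood test over 16197 genes, and adjusted p-values below are from that fit unless a library is said to be left out. Totals were 24336768 to 29206149 counts in siSLC25A1 and 25438086 to 43792811 in siACLY. The Pearson correlations of log2 CPM between replicates were 0.992 to 0.994 across genes. On the 6 libraries the first principal component, 47.9% of the variance, separated the 2 knockdowns. The second (15.02%) set siSLC25A1 replicate 2 (score -29.8) against replicate 3 (18.4), and the third (14.8%) set replicate 1 (27.1) against replicate 3 (-23.4). The keratins KRT8 and KRT18 and vimentin (VIM) were each above 1000 CPM in all 6 libraries, while EPCAM and CDH1 stayed at or below 0.0775 CPM. Of the other keratins, KRT19 was at 115 to 143 CPM and KRT7 at or below 0.209 CPM. The counts of KRT8 and VIM are uncertain. Of the 31-base stretches of KRT8 transcripts 22.1% occur in other genes, and 24.4% of VIM exon bases overlap another gene. Of the defining markers of acinar, endocrine, fibroblast, leukocyte and endothelial cells, COL1A2 (783 to 875 CPM in the 6 libraries) was the exception to levels under 1 CPM. In bulk RNA, fewer cells of a kind and less RNA per cell cannot be told apart.

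Each siRNA lowered its own target and left the other's target in place. SLC25A1 (ENSG00000100075.10; GENCODE release 29 on GRCh38, chromosome 22, 19175575 to 19178830, minus strand) stood at 12.9, 10.5 and 11.7 CPM in siSLC25A1 and at 133, 129 and 132 CPM in siACLY. The siControl libraries stood at 133, 135 and 134 CPM, and their range overlapped that of siACLY. The log2 fold change between the knockdowns was -3.48 (SE 0.06, adjusted p 9.94e-27). On the minus strand of chromosome 17, from 41866908 to 41930542, lies ACLY (ENSG00000131473.17). It stood at 496, 485 and 490 CPM in siSLC25A1 and at 36.4, 36.4 and 35.5 CPM in siACLY. Its siControl libraries were at 495, 493 and 507 CPM, and its log2 fold change was 3.76 (SE 0.04, adjusted p 5.00e-32). ACO1, cytosolic aconitase, was at 42.2, 41.5 and 44.9 CPM in siSLC25A1 and slightly higher at 51.1, 50.8 and 49.3 CPM in siACLY (log2 fold change -0.24, adjusted p 0.00221).

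**Figure D1:**
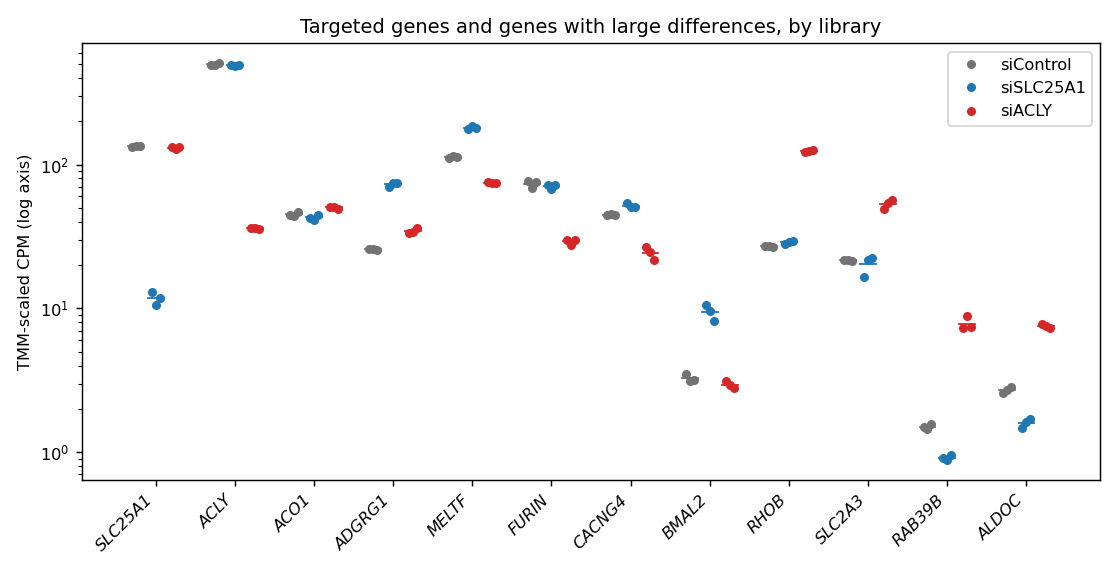
TMM-scaled CPM on a log axis for the 3 targeted genes of the series and 9 genes with large differences, with 1 point per library and a line at each group mean. SLC25A1 and ACLY are each low in their own knockdown, MELTF lies above siControl in siSLC25A1 and below it in siACLY, and RHOB lies at 122 to 127 CPM in siACLY against 27.9 to 29.4 CPM in siSLC25A1.

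Of the 16197 genes, 5472 (33.8%) differed between the knockdowns, 2837 (17.5%) higher in siSLC25A1 and 2635 (16.3%) higher in siACLY. The share higher in siSLC25A1 was 51.8% of the calls, and 41.0% with library totals alone as the scaling, which moved the median of all genes from -0.013 to -0.052 on the log2 scale. Most differences were small: the median absolute log2 fold change of called genes was 0.33. Against siControl, in comparisons that share their controls, siSLC25A1 differed in 3173 genes (19.6%) and siACLY in 5943 (36.7%).

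Large differences leaned one way. Among called genes 462 were at least 2-fold higher in siACLY and 77 at least 2-fold higher in siSLC25A1. Most of the 462 were genes of low expression, with medians of 0.59 CPM in siControl, 0.46 in siSLC25A1 and 1.15 in siACLY, and 88 of them reached 5 CPM in the higher group. Of the 77, 15 reached 5 CPM. Over all tested genes the median log2 fold change was -0.21 for genes up to 1 CPM and -0.14 from 1 to 5 CPM. It was -0.07 from 5 to 10 CPM, 0.01 from 10 to 50 CPM and 0.06 above 50 CPM. Among calls up to 1 CPM 65 genes were higher in siSLC25A1 and 301 in siACLY, and above 50 CPM the counts were 1545 and 645. Fewer genes had counts in a siSLC25A1 library (22595 to 22894) than in a siACLY library (23352 to 24960), and the part of detection and depth in this lean was not tested.

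**Figure D2:**
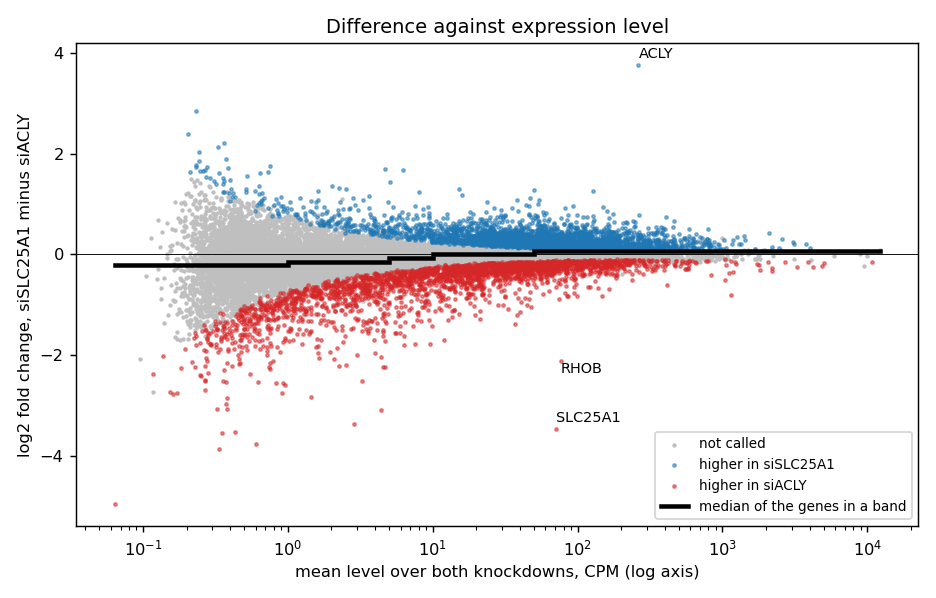
Log2 fold change, siSLC25A1 minus siACLY, against the mean level of both knockdowns on a log axis, 1 point per gene, with black bars at the median of the genes in each band of level. The medians run from -0.21 for the genes at lowest level to 0.06 above 50 CPM, and SLC25A1, ACLY and RHOB lie far from the other genes of their level.

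Beyond ACLY itself, the genes with the largest excess in siSLC25A1 included secreted, surface and transcription factor genes. BMAL2, a partner of CLOCK in the circadian clock, stood at 10.6, 9.65 and 8.12 CPM in siSLC25A1 and at 3.14, 2.91 and 2.77 CPM in siACLY (log2 fold change 1.67, SE 0.17, adjusted p 1.73e-08). Its siControl level, 3.11 to 3.49 CPM, was that of siACLY within 1 CPM. ADGRG1, an adhesion receptor coupled to G proteins, was at 70.05, 74.2 and 74.6 CPM in siSLC25A1 and 33.4, 34.2 and 36.0 CPM in siACLY (1.08, adjusted p 4.18e-15). The siControl libraries lay below both, at 25.5 to 26.0 CPM. MELTF, a cell surface protein of the transferrin family, was at 178, 186 and 178 CPM in siSLC25A1 and 75.6, 74.7 and 74.7 CPM in siACLY (1.27, SE 0.04, adjusted p 1.43e-19). The siControl libraries, at 111 to 114 CPM, lay between the knockdowns. APLN, the ligand of the apelin receptor, had the same order: 6.88 to 7.80 CPM in siSLC25A1, 3.79 to 3.85 in siControl and 2.04 to 2.29 in siACLY (1.70).

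For another set the excess in siSLC25A1 went with a level below siControl in siACLY. FURIN, a proprotein convertase of the Golgi that activates growth factors and receptors, was at 72.0, 67.8 and 72.2 CPM in siSLC25A1, 68.2 to 76.8 CPM in siControl and 30.0, 27.6 and 30.0 CPM in siACLY (log2 fold change 1.27, SE 0.06, adjusted p 3.90e-16). PPARG, a nuclear receptor of lipid storage, had means of 11.3, 11.6 and 4.82 CPM in siSLC25A1, siControl and siACLY (1.25). The transcription factor NFIB (1.18), the guanine nucleotide exchange factor ARHGEF40 (1.44) and the chromatin remodeller CHD3 (1.12) followed the same order, with siACLY lowest. Creatine kinase B (CKB, 1.29) and the calcium channel subunit CACNG4 (1.07) completed the 12 genes with the largest excess in siSLC25A1. In none of these 12 did a library of one knockdown overlap the other, which the choice of the genes required.

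The genes with the largest excess in siACLY were, beside SLC25A1, mostly of low expression. RHOB, a small GTPase of endosomes and stress responses, was the exception. It stood at 27.9, 28.95 and 29.4 CPM in siSLC25A1, 26.8 to 27.2 CPM in siControl and 122, 125 and 127 CPM in siACLY (log2 fold change -2.11, SE 0.05, adjusted p 1.85e-23). RAB39B, a small GTPase of vesicle traffic, stood at 0.906, 0.885 and 0.953 CPM in siSLC25A1 and at 7.32, 8.84 and 7.36 CPM in siACLY (-3.09, SE 0.19, adjusted p 4.70e-13). Its siControl level of 1.44 to 1.57 CPM lay between these. ABAT, which breaks down the neurotransmitter GABA, had the same order at -2.51, as did the glycolytic aldolase ALDOC at -2.24, SHH, the Hedgehog ligand, at -1.79 and the histone gene H2AC6 at -1.78. The carboxylesterase CES3 (-1.72) was at 2.02 to 2.36 CPM in siSLC25A1, 4.99 to 6.96 CPM in siControl and 6.86 to 7.68 CPM in siACLY, so that its difference lay mainly on the siSLC25A1 side. The bicarbonate transporter SLC4A8 (-2.24), NXPE3 (-2.04), the retrotransposon-derived PEG10 (-1.96) and TSC22D3 (-1.81), a glucocorticoid-induced leucine zipper protein, completed the 12.

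The 45 gene lists held 937 tested genes, and list medians ran from -0.20 to 0.34. More members were called higher in siSLC25A1 in 24 lists and higher in siACLY in 18, with equal numbers in 3. Each count below is to be read against the 17.5% and 16.3% of all genes, and these shares varied with level. Above 50 CPM 1545 of 4398 genes were higher in siSLC25A1 and 645 in siACLY. From 1 to 5 CPM the counts were 147 and 502 of 2786. The part of expression level in the list counts was not tested.

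**Figure D3:**
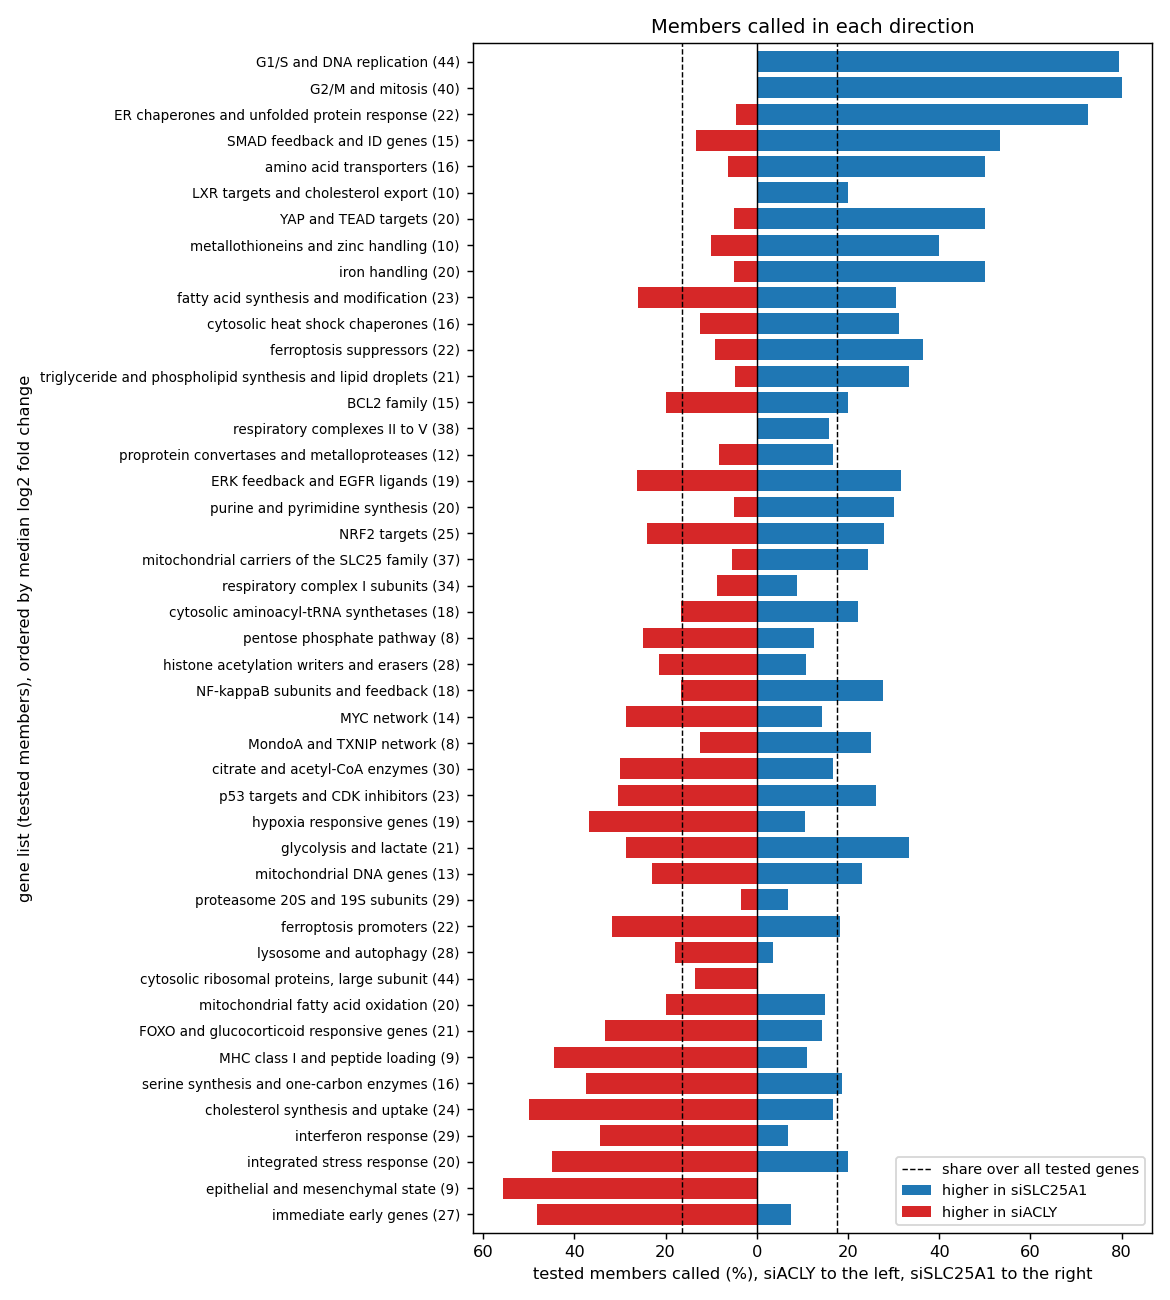
Share of the tested members of each gene list that were called higher in siSLC25A1 (blue, to the right) or higher in siACLY (red, to the left), with dashed lines at the shares over all genes, 17.5% and 16.3%. Lists are ordered by their median log2 fold change, and the cell cycle and ER chaperone lists at the top have few or no members called higher in siACLY.

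Cell cycle genes made up the list pair that set the knockdowns furthest apart. DNA replication depends on licensing by the MCM helicase and on the sliding clamp PCNA, under control of E2F factors, and mitosis on a later set of genes that peak in G2. Of 44 tested G1/S and replication genes 35 were higher in siSLC25A1 and 0 in siACLY, with a median log2 fold change of 0.34. Of 40 G2/M and mitosis genes 32 were higher in siSLC25A1 and 0 in siACLY, with a median of 0.30. Over all genes the median was -0.013.

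PCNA was at 222, 187 and 181 CPM in siSLC25A1 and 112, 101 and 93.8 CPM in siACLY (log2 fold change 0.94, SE 0.07, adjusted p 3.33e-08). The groups did not overlap, which also held for 7524 of the 16197 tested genes (46.5%). The siControl libraries, at 185 to 201 CPM, lay within the range of siSLC25A1. E2F1 was at 117, 103 and 107 CPM against 66.7, 58.3 and 65.1 CPM (0.78, adjusted p 2.30e-11), with siControl at 90.8 to 93.8 CPM in between. The licensing factor CDC6 (0.73), MCM10 (0.68) and MCM5 (0.64) had the next largest differences, beside the cyclin CCNE2 (0.73), 37.1% of whose exon bases overlap another gene, which makes its count uncertain. CCNE1, GINS2 and RFC2 were the members with a negative value (-0.12, -0.06 and -0.04), and none of these was called.

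Among mitotic genes, ANLN, a scaffold of the cleavage furrow, was at 609, 542 and 552 CPM in siSLC25A1 and 378, 364 and 339 CPM in siACLY (0.66, SE 0.05, adjusted p 7.60e-12). Its siControl libraries, at 461 to 485 CPM, lay between the groups. Cyclin A2 (CCNA2, 0.55), the spindle protein ASPM (0.53) and the proliferation marker MKI67 (0.51) followed. KIF2C, at 125 CPM in both knockdowns, had a log2 fold change of 0.00.

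Each library was also set against the siControl mean. The median member of the G1/S list was at log2 ratios of 0.17, 0.01 and -0.003 in the siSLC25A1 libraries and -0.18, -0.28 and -0.37 in the siACLY libraries. For the G2/M list the values were 0.27, 0.11 and 0.11 against -0.08, -0.16 and -0.21. SiSLC25A1 replicate 1 was the highest library in both lists. Without it the counts were 31 and 26 members, and the G1/S median was 0.29.

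**Figure D4:**
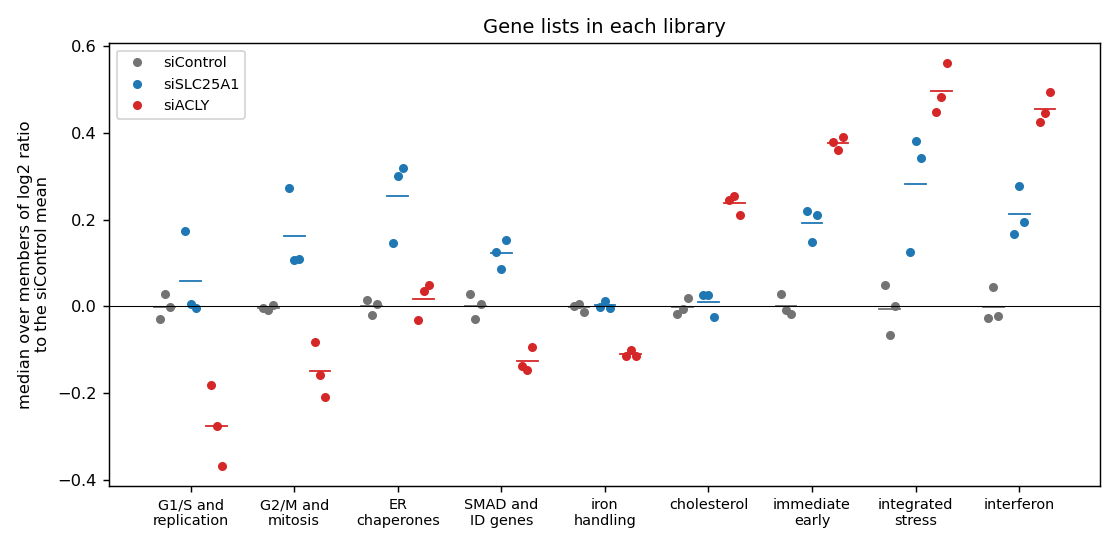
Median over the tested members of each list of the log2 ratio to the siControl mean, computed with 0.5 CPM added, with 1 point per library and a line at each group mean. For the cell cycle lists siACLY lies below 0, for ER chaperones siSLC25A1 lies above it, and for cholesterol genes siACLY lies above it while siSLC25A1 stays within 0.03 of it.

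Chaperones of the endoplasmic reticulum (ER) were higher in siSLC25A1. These genes fold secreted proteins and rise in the unfolded protein response, in which IRE1, PERK and ATF6 signal from the ER membrane. Of 22 tested members 16 were higher in siSLC25A1 and 1 in siACLY, with a median log2 fold change of 0.28. The lead chaperone HSPA5 (BiP) was at 1357, 1745 and 1630 CPM in siSLC25A1 and 1217, 1325 and 1329 CPM in siACLY (0.29, SE 0.07, adjusted p 0.00348). The groups did not overlap, as in 46.5% of all tested genes, and siControl, at 1208 to 1243 CPM, overlapped siACLY.

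MANF, a secreted ER stress protein, was at 54.5, 79.0 and 71.3 CPM in siSLC25A1 and 42.7, 46.9 and 48.4 CPM in siACLY (0.57, SE 0.13, adjusted p 0.00704). SDF2L1 (0.47), the ubiquitin ligase SYVN1 of ER-associated degradation (0.40), DNAJC3 (0.36), HSP90B1 (0.32) and calreticulin (CALR, 0.29) were called in the same direction. ERN1, which encodes IRE1, was the called member with the opposite sign (-0.20). XBP1, whose transcript IRE1 splices, was at 177 to 202 CPM in siSLC25A1 and 169 to 182 CPM in siACLY and was not called (0.12, adjusted p 0.12). SiSLC25A1 replicate 1 was the lowest of its group for HSPA5, MANF and the list median, at 0.15 against 0.30 and 0.32, and it was the highest for the cell cycle lists.

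Promoter sequence was read for the lists that moved together. The ER stress response element is the site of ATF6 and NF-Y in chaperone promoters, spelled CCAAT, then 9 bases of any kind, then CCACG. It was searched on both strands in the 250 bases before and 50 after each RefSeq gene start (GRCh38.p14). It occurred in the promoters of 7 of 21 ER genes with an entry (33.3%) and in 0.0916% of 27305 genes. All 7, namely CALR, CANX, CRELD2, HSP90B1, HSPA5, PDIA6 and XBP1, had positive log2 fold changes, 5 of them called, with a median of 0.29, and the 14 ER genes without a match had a median of 0.27. The count of PDIA6 is uncertain, because 25.2% of its exon bases overlap another gene. The promoters below are shown because they carry the element (capitals), 5′ to 3′ on the strand of the gene, each ending at the base before the start.
HSPA5, chr9:125241344-125241443, minus strand: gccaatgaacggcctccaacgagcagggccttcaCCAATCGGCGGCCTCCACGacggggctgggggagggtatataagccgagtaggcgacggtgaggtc
CRELD2, chr22:49918534-49918633, plus strand: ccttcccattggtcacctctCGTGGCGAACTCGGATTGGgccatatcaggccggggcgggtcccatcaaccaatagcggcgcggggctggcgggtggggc
HSP90B1, chr12:103930206-103930409, plus strand: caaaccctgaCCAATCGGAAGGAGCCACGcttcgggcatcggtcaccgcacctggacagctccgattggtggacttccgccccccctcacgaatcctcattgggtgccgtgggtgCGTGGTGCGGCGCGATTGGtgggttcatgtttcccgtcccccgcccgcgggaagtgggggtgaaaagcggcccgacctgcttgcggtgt

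The E2F site was searched as TTTGGCGC or TTTCGCGC on both strands of the same windows. It occurred in 12 of 37 G1/S genes with an entry (32.4%) and in 1.40% of all genes. Of the 12, 10 were called higher in siSLC25A1, with a median of 0.35, and of the 25 without it 18 were, with a median of 0.33. The cell cycle genes homology region, TTTGAA, a site of repressor complexes in G2/M promoters, occurred in 23 of 33 G2/M genes (69.7%) and in 18.2% of all genes. The median log2 fold change was 0.36 with it and 0.22 in the 10 genes without it. The promoters of E2F1 and UHRF1, a reader of hemimethylated DNA, show the 2 forms of the E2F site, and ANLN shows the homology region on both strands, with capitals on each match.
E2F1, chr20:33686386-33686485, minus strand: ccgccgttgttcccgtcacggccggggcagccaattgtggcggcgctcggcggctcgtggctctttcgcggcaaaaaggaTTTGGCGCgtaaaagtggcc
UHRF1, chr19:4909974-4910143, plus strand: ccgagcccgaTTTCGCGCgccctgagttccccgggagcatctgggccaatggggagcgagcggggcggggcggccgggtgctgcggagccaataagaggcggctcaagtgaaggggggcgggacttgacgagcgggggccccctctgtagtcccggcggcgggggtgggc
ANLN, chr7:36389762-36389861, plus strand: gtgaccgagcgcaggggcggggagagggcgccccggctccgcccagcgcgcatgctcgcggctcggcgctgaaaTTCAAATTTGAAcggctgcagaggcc

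A match is a description of these letters and not evidence of binding. UHRF1 itself was at 262, 228 and 225 CPM in siSLC25A1 and 179, 160 and 158 CPM in siACLY (log2 fold change 0.52, adjusted p 1.47e-08). Of the 31-base stretches of its transcripts, 27.3% occur in other genes, which makes its count uncertain. The sterol regulatory element core, CACCCCAC, was found in 1 of 18 cholesterol genes with an entry (SREBF2) and in 3.39% of all genes, and the CArG box of serum response factor in 2 of 22 immediate early genes (EGR1 and SRF) and in 1.60% of all genes.

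Sterol synthesis genes leaned towards siACLY. Of 24 tested genes of cholesterol synthesis and uptake 12 were higher in siACLY and 4 in siSLC25A1, with a median log2 fold change of -0.13. The 12 included enzymes from the start of the mevalonate route to its last sterol steps. MSMO1, a sterol C4-methyl oxidase, was at 17.1, 15.3 and 16.2 CPM in siSLC25A1 and 30.4, 31.8 and 27.9 CPM in siACLY (-0.89, SE 0.07, adjusted p 8.74e-11). The siControl libraries, at 16.2 to 16.9 CPM, lay within the siSLC25A1 range. DHCR7, which makes cholesterol from its last precursor, was at 49.1, 49.7 and 57.8 CPM in siSLC25A1 and 92.6, 99.0 and 97.4 CPM in siACLY (-0.88, adjusted p 3.14e-12), with siControl between at 65.5 to 70.2 CPM.

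TM7SF2 (-0.74), SC5D (-0.64), the SREBP retention protein INSIG1 (-0.55), the HMG-CoA synthase HMGCS1 (-0.48), the kinase MVK (-0.46) and squalene epoxidase SQLE (-0.35) were also higher in siACLY. Members called higher in siSLC25A1 included the regulator SREBF2 (0.29) and HSD17B7 (0.22). Of the 31-base stretches of HSD17B7 transcripts, 22.7% occur in other genes, which makes its count uncertain. SREBF2 was at 102 to 107 CPM in siSLC25A1, 122 to 125 CPM in siControl and 81.8 to 89.7 CPM in siACLY, so both knockdowns lay below siControl.

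SREBF1, which drives lipogenic genes, was at 175, 198 and 188 CPM in siSLC25A1 and 126, 133 and 127 CPM in siACLY (log2 fold change 0.54, SE 0.05, adjusted p 5.16e-10). Both groups lay below siControl, at 218 to 243 CPM. Fatty acid synthase (FASN) was at 663, 695 and 734 CPM against 571, 516 and 574 CPM (0.33, adjusted p 0.00127), and the desaturase SCD at 534, 644 and 615 CPM against 462, 493 and 487 CPM (0.32, adjusted p 4.71e-04). The ligase ACSL3 (0.39), which activates fatty acids for lipid droplets, was also higher in siSLC25A1. The acetyl-CoA carboxylase ACACA, a gene of low counts here, was not called (0.33, SE 0.22, adjusted p 0.272).

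Of the 23 tested genes of fatty acid synthesis and modification 7 were higher in siSLC25A1 and 6 in siACLY, so that the list as a whole had no common direction (median 0.09). Those higher in siACLY included the elongases ELOVL6 (-1.90) and ELOVL7 (-1.50), both at low counts, the carbohydrate-responsive factor MLXIPL (-0.76), the desaturase FADS2 (-0.45) and ACSL4 (-0.62), which activates arachidonate. ACSL4 was at 64.4, 68.5 and 63.7 CPM in siSLC25A1 and 98.8, 103 and 100 CPM in siACLY (adjusted p 3.19e-11), above siControl (55.1 to 56.3 CPM) in both. Of 10 LXR targets and cholesterol export genes, 2 were called, both higher in siSLC25A1, with the ubiquitin ligase MYLIP at 0.71.

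**Figure D5:**
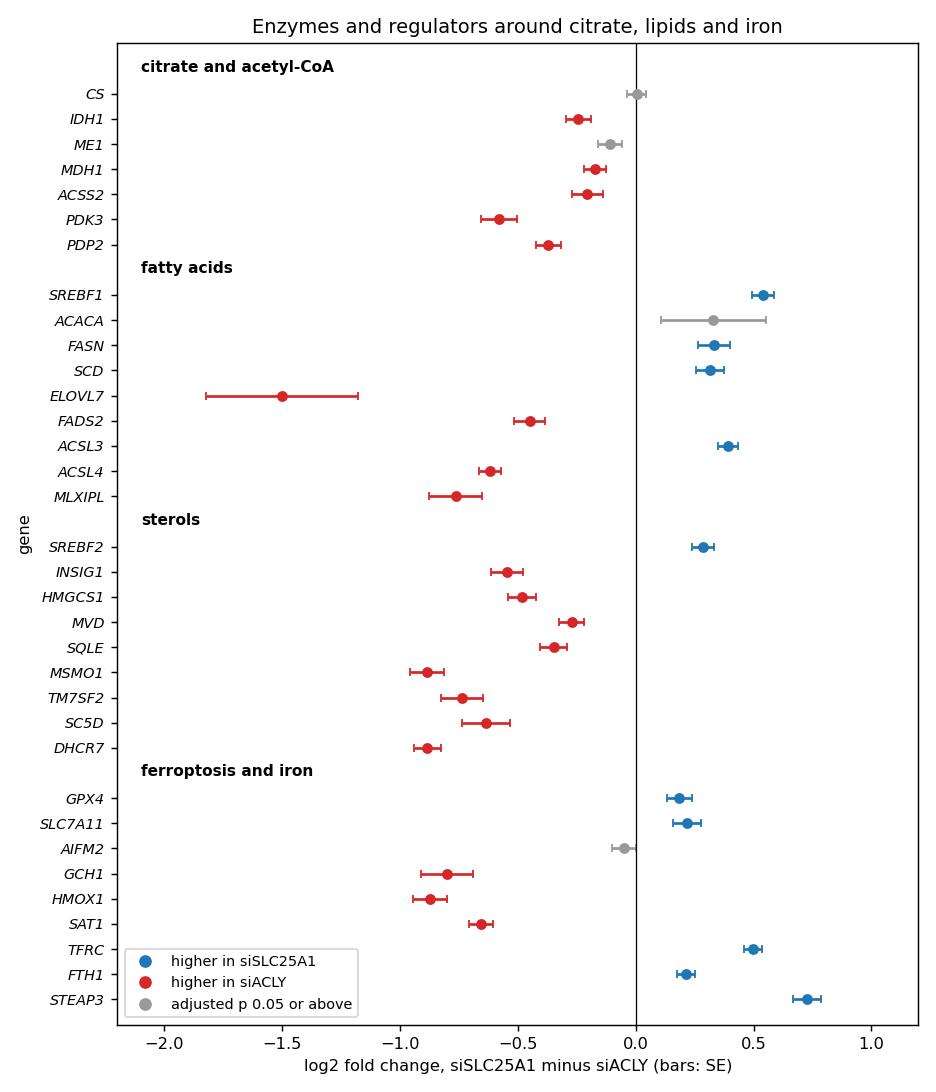
Log2 fold change, siSLC25A1 minus siACLY, with its SE for enzymes and regulators of citrate, fatty acids, sterols, ferroptosis and iron, grouped by role. Points in blue were called higher in siSLC25A1, those in red higher in siACLY and those in grey were not called; most sterol enzymes lie to the left of 0 and SREBF1 and SREBF2 to its right.

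Genes next to the 2 targeted steps went both ways. Of 30 tested genes of citrate and acetyl-CoA metabolism 14 were called (46.7%), 5 higher in siSLC25A1 and 9 in siACLY, with a median of 0.00. With library totals alone as the scaling these counts were 2 and 11, with a median of -0.04. Citrate synthase (CS), which makes the citrate that SLC25A1 exports, was at 252, 236 and 237 CPM in siSLC25A1 and 242, 248 and 233 CPM in siACLY (log2 fold change 0.00, SE 0.04, adjusted p 0.96). The groups overlapped, and siControl was higher at 269 to 282 CPM. Cytosolic malic enzyme (ME1, -0.11) was not called. Cytosolic isocitrate dehydrogenase (IDH1, -0.24) and cytosolic malate dehydrogenase (MDH1, -0.17) were higher in siACLY.

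ACSS2, which makes cytosolic acetyl-CoA from acetate and so bypasses ACLY, was at 26.5, 26.5 and 29.1 CPM in siSLC25A1 and 32.1, 30.6 and 31.7 CPM in siACLY. Both knockdowns lay above siControl, at 21.4 to 23.7 CPM. Its difference (-0.20, SE 0.07, adjusted p 0.0154) lost its call without siSLC25A1 replicate 1 or 2 or siACLY replicate 1. The pyruvate dehydrogenase kinase PDK3 (-0.58), the phosphatase PDP2 (-0.37) and the subunit DLD (-0.30) were higher in siACLY. PDK4, the member of the list with the lowest value, was not called (-1.08, adjusted p 0.179). The lactate exporter SLC16A3 was at 251, 211 and 211 CPM in siSLC25A1 and 136, 124 and 126 CPM in siACLY (0.80, SE 0.05, adjusted p 5.25e-11). Its siControl libraries, at 195 to 207 CPM, lay near siSLC25A1.

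The other carriers of the SLC25 family held 9 members higher in siSLC25A1 and 2 in siACLY of 37 tested (median 0.03). With library totals alone the counts were 7 and 6 and the median was -0.01, so the lean depended on the scaling. SLC25A40 (0.46), SLC25A23, an ATP-magnesium and phosphate carrier (0.41), and the mitoferrins SLC25A37 and SLC25A28 (0.26 each) were among the 9. The 2 were the carnitine carrier SLC25A20 (-0.61), which stood at 5.84 to 7.00 CPM in siSLC25A1 and 9.40 to 10.4 CPM in siACLY, and the glutamate carrier SLC25A22 (-0.22). Among tested glycolytic genes 7 of 21 were higher in siSLC25A1 and 6 in siACLY. The lactate dehydrogenase genes LDHA and LDHB had at most 4 counts in any library and were not tested. Counts were also near 0 for the ribosomal protein gene RPL7A (at most 6) and the respiratory subunit gene COX5B (0). Whether such low counts reflect low expression was not tested. SLC2A3, a high-affinity glucose transporter, was at 16.6, 21.7 and 22.5 CPM in siSLC25A1, 21.3 to 21.7 CPM in siControl and 48.8, 54.4 and 56.3 CPM in siACLY (-1.39, adjusted p 6.03e-12). Of the 31-base stretches of its transcripts, 30.4% occur in other genes, which makes its count uncertain. PFKFB2, which sets the level of a glycolytic activator, was also higher in siACLY (-1.01), while hexokinase 2 (HK2, 0.40) and enolase 1 (ENO1, 0.20) were higher in siSLC25A1.

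Ferroptosis genes, the question of the series title, did not share one direction. Of 22 tested suppressors 8 were higher in siSLC25A1 and 2 in siACLY, with a median of 0.08. GPX4, which reduces lipid hydroperoxides, was at 252, 252 and 245 CPM in siSLC25A1 and 216, 213 and 228 CPM in siACLY (log2 fold change 0.19, adjusted p 0.00873). Both groups lay below siControl, at 278 to 287 CPM. The cystine importer SLC7A11 was at 61.4, 71.3 and 63.7 CPM against 53.3, 55.2 and 60.6 CPM (0.22, adjusted p 0.00505), and the call was lost without siSLC25A1 replicate 2 (0.16, adjusted p 0.0583). AIFM2, also known as FSP1, was at 59.1 to 61.5 CPM against 61.3 to 64.5 CPM and was not called (-0.05, adjusted p 0.471). GCH1, which makes tetrahydrobiopterin, was higher in siACLY, at 9.44 to 10.2 CPM against 5.51 to 5.79 CPM (-0.80).

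Of 22 tested promoters of ferroptosis 7 were higher in siACLY and 4 in siSLC25A1, with a median of -0.05. Heme oxygenase 1 (HMOX1), which frees iron from heme, was at 29.6, 29.6 and 32.5 CPM in siSLC25A1 and 54.1, 52.99 and 60.7 CPM in siACLY (-0.87, SE 0.07, adjusted p 1.76e-10). The siControl libraries lay below both, at 19.2 to 20.8 CPM. The lipoxygenase ALOXE3 (-1.26), the polyamine acetyltransferase SAT1 (-0.66) and ACSL4 were ordered likewise. Of 20 iron-handling genes 10 were higher in siSLC25A1 and HMOX1 alone in siACLY (median 0.11). The transferrin receptor TFRC was at 926, 940 and 909 CPM in siSLC25A1, 750 to 778 CPM in siControl and 657, 662 and 646 CPM in siACLY (0.50, SE 0.04, adjusted p 2.95e-11). The ferrireductase STEAP3 (0.73) had the same order. The ferritin chains FTH1 (0.21) and FTL (0.30) were also higher in siSLC25A1 and have counts made uncertain by shared sequence.

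Of 27 immediate early genes, which respond within minutes to growth factors, 13 were higher in siACLY and 2 in siSLC25A1 (median -0.20). FOSB was at 5.68, 5.47 and 3.69 CPM in siSLC25A1 and 12.6, 10.2 and 9.90 CPM in siACLY (-1.14, adjusted p 4.98e-05), and EGR1 at 103, 116 and 102 CPM against 167, 180 and 164 CPM (-0.67, adjusted p 4.08e-05). Both genes were lowest in siControl, at 0.928 to 1.33 CPM and 44.1 to 58.9 CPM. FOS (-0.68) and KLF2 (-0.44) had the same order of means, and RHOB belongs to this list as well. FOSL1 (0.38) was the larger of the 2 exceptions.

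ERK feedback genes and EGFR ligands split 6 against 5 of 19. The phosphatase DUSP1 (-0.95) and the ligands AREG (-0.48) and HBEGF (-0.29) were higher in siACLY. EGFR itself (0.39) and the phosphatases DUSP7 (0.50) and DUSP5 (0.35) were higher in siSLC25A1.

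The integrated stress response, in which kinases acting on eIF2 raise the factor ATF4, had 9 of 20 members higher in siACLY and 4 in siSLC25A1 (median -0.18). ATF4 itself was at 426, 460 and 439 CPM in siSLC25A1 and 372, 395 and 401 CPM in siACLY (0.18, adjusted p 0.00305). Several of its known targets were higher in siACLY, with NUPR1 at -1.85, asparagine synthetase ASNS at -0.70, GDF15 at -0.61 and TRIB3 at -0.27. Among the 4 members higher in siSLC25A1, SLC7A11 had the largest difference (0.22). Against siControl the list median was 0.36 in siSLC25A1 and 0.53 in siACLY. Shared sequence makes the counts of ATF4 and ASNS uncertain (29.7% of the stretches of ATF4 and 44.6% of the exon bases of ASNS). Leaving out a library gave 6 to 8 members higher in siACLY and 1 to 4 higher in siSLC25A1. Of 16 amino acid transporters 8 were higher in siSLC25A1 and 1 in siACLY (median 0.20). SLC7A5, the large neutral amino acid carrier, was at 1328, 1466 and 1420 CPM against 1105, 1101 and 1111 CPM (0.35, adjusted p 1.58e-07).

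Of 41 interferon response genes 12 were not tested. Of the 29 tested genes 10 were higher in siACLY and 2, OASL (0.44) and IFIT2 (0.22), in siSLC25A1 (median -0.15). IFI6 was at 3.55, 4.83 and 2.57 CPM in siSLC25A1 and 7.08, 8.06 and 7.59 CPM in siACLY (-1.04, adjusted p 2.60e-06), with siControl at 3.32 to 4.08 CPM. ISG20 (-1.03) and IFI35 (-0.78) followed. Leaving out a library gave 7 to 9 such members. Of 17 genes of MHC class I presentation 8, among them HLA-C, TAP1 and TAP2, had at most 2 counts in any library and were not tested. Whether these counts reflect low expression was not tested. Of the 9 tested genes 4 were higher in siACLY, among them the transactivator NLRC5 (-0.76) and HLA-B (-0.90). The loading factor TAPBP (1.03), at low counts, was higher in siSLC25A1. Leaving out a library gave 0 to 1 members higher in siSLC25A1, and the count was 0 without siSLC25A1 replicate 1 or siACLY replicate 1 or 2.

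TGF-beta and Hippo genes leaned towards siSLC25A1. Of 15 SMAD feedback and ID genes 8 were higher in siSLC25A1 and 2 in siACLY (median 0.26). LTBP2, a matrix protein, was at 70.5, 71.3 and 72.8 CPM in siSLC25A1, 32.4 to 36.9 CPM in siControl and 37.6, 36.1 and 33.7 CPM in siACLY (0.99, SE 0.08, adjusted p 3.27e-08). PMEPA1, a feedback inhibitor, was also higher in siSLC25A1 (0.73), but both knockdowns lay below siControl (27.9 to 29.4 CPM), at 21.3 to 22.7 and 13.1 to 13.5 CPM. BAMBI, a decoy receptor, was higher in siACLY (-0.83). Of 20 YAP and TEAD genes 10 were higher in siSLC25A1 and 1 in siACLY (median 0.15), with TEAD2 (0.85), the receptor kinase AXL (0.40) and YAP1 (0.39) in front.

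Some lists set the knockdowns apart no more than other genes did. Of 44 ribosomal proteins of the large subunit 6 were called (13.6%), all higher in siACLY, and of 29 proteasome subunits 3 (10.3%). Of 34 complex I subunits 3 were higher in each knockdown, and of 38 subunits of complexes II to V 6 were higher in siSLC25A1 (15.8%). With library totals alone as the scaling, the ribosomal list had 11 members higher in siACLY and the proteasome list 9.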

How the data were processed

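The deposited table held whole-number read counts per gene and library, made by the authors from poly(A) RNA. Per the submitters' processing notes the tools included CASAVA, FastQC, Trim Galore, STAR 2.7.0e and DESeq2, with the builds GRCm39 and GRCh38 named without a role. The counting tool, annotation release and strand setting are not given in the sources used here.

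A robust quasi-likelihood model with TMM factors and the filterByExpr filter was run in edgeR 4.0.16 under R 4.3.3 over all 12 libraries and 4 groups, and p-values were adjusted by the Benjamini-Hochberg method over the 16197 genes kept. The procedure was tested on simulated data. Same-numbered replicates did not deviate together, and the labels give no pairing. Alternatives were DESeq2 1.42.0, other scalings and filters, the 6 libraries alone, a replicate block and leaving out each library.

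Named genes were the targets, the 12 largest called differences in each direction whose higher group averaged 5 CPM or more and whose libraries did not overlap, the 3 largest called members of each list with at least 1 CPM, and enzymes next to both steps. Members and lists were chosen with earlier results of these data known. Other members named in the text were chosen after their values were seen. Counts were marked uncertain where at least 20% of exon bases (GENCODE release 29) overlapped another gene or at least 20% of 31-base stretches occurred elsewhere. Promoters came from RefSeq (GRCh38.p14), with Python 3.11.15. Some members of the lists are not reported here by name.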

Additional observations from a re-analysis of the deposited data

How the results depend on the processing

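The count of genes differing between the knockdowns, 5472, was 5139 to 6331 under other scalings, filters, tools and sets of libraries, and 4658 to 4792 with a library left out. A replicate block gave 5592 calls, of which 5408 were shared. The count was 539 at an absolute log2 fold change of at least 1, where the counts against siControl were 170 for siSLC25A1 and 589 for siACLY. At an adjusted p under 0.01 the siSLC25A1 count against siControl was 1941. Leaving out a library gave 2319 to 2699 calls for siSLC25A1 and 5002 to 5132 for siACLY. The log2 fold change of SLC25A1 ran from -3.56 to -3.40 and that of ACLY from 3.72 to 3.78. Over 171 named genes and 14 alternatives, 2345 of 2390 values kept their call or lack of one, 43 lost the call, 2 gained it and no called value changed sign. CS, which was not called, ran from -0.04 to 0.03. Of 630 list medians 81 moved beyond the spread between replicates. The cholesterol, immediate early and citrate lists each moved in 6 of 14 alternatives. Their medians ran from -0.19 to -0.13, from -0.27 to -0.17 and from -0.04 to 0.02. Low counts limit the precision of genes near 1 CPM. The cause of lost calls was not tested.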

Other observations

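Replication-dependent histone genes were examined as a group chosen after its values were seen. They are expressed in S phase and most of their transcripts end in a stem loop without a poly(A) tail. Of 31 tested members 15 were called higher in siACLY and 0 in siSLC25A1, with a median log2 fold change of -0.78 and a range from -2.75 to 0.42. Among members that were not called, H2BC4 (0.42), H2AC14 (0.16) and H2AC16 (0.09) had positive values. Over all tested genes up to 1 CPM the median was -0.21, and the part of low expression in the histone values was not tested. Of the stretches of H2BC12 (-1.21), 86.3% occur in other genes, which makes its count uncertain. The G1/S list had a median of 0.34. The libraries were made from poly(A) RNA, and the part of polyadenylation was not tested.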
